A study of Homo sapiens with 12 samples.

Results

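The genes described here are 10 members of the S100 family of calcium-binding proteins, picked by name from a deposited table of 58735 genes: S100A2, S100A4, S100A6, S100A9, S100A10, S100A11, S100A13, S100A14, S100A16 and S100P. RNA sequencing counted them in A549, an established human line of non-small cell lung cancer cells, in 4 groups of 3 libraries. The first group was a stable line with a control hairpin RNA (shControl, given as WT in the genotype label), sham irradiated. The second was the same line taken 3 days after ionizing radiation. The third stably carried a hairpin against FXR (shFXR) and was sham irradiated, and the fourth was that line taken 3 days after ionizing radiation. The sources used here do not give the radiation dose, when the sham cells were collected, or whether each line was a pool or a clone. With 1 line per hairpin, an effect of FXR loss and a difference between the lines cannot be told apart. The question set by the design is what loss of FXR does to gene expression in these cells with and without radiation.

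S100 proteins are small EF-hand proteins that mostly work as dimers. Calcium binding opens a surface on the dimer, through which it binds target proteins such as annexins, myosin heavy chains and p53. Several members also leave the cell and act as ligands of AGER (the receptor RAGE) and TLR4. S100A8 and S100A9 form the heterodimer calprotectin, best known from neutrophils and also made by stressed epithelia. S100A4, S100A6, S100A10, S100A11 and S100P are known from carcinoma cells, where S100A4 is studied for motility. Most genes of the family lie side by side on the long arm of chromosome 1, and S100P lies on chromosome 4. FXR, taken here as the bile acid receptor NR1H4, is a nuclear receptor that binds DNA at inverted repeats of the hexamer AGGTCA.

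Sequences around a transcription start are shown for the 4 members that were lower in the shFXR line with and without radiation, since a reader may want to set them beside that difference. Each window runs from 250 bases before to 50 bases after a start in RefSeq (GRCh38.p14), written 5′ to 3′ on the gene's strand. Capitals mark matches to a GC box (GGGCGG, or CCGCCC for a match on the other strand) and to the hexamer AGGTCA.
S100A9, chr1:153357604-153357903, plus strand: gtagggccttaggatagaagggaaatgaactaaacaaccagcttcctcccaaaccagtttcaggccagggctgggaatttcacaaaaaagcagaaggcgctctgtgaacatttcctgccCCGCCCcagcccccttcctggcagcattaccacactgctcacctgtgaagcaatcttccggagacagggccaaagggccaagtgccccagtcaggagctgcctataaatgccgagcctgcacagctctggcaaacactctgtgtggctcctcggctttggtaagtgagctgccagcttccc
S100P, chr4:6693628-6693927, plus strand: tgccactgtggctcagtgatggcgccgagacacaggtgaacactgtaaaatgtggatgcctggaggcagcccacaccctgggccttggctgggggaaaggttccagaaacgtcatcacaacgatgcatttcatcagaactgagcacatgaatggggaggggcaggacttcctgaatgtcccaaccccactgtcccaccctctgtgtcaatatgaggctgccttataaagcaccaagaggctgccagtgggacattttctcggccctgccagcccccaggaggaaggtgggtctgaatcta
S100A6, chr1:153535942-153536241, minus strand: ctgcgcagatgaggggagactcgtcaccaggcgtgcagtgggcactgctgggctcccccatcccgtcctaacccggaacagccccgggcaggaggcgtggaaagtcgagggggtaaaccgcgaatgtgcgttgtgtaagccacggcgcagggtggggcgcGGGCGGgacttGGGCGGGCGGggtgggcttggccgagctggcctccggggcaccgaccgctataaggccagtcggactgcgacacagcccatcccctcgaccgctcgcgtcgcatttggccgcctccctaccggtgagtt
S100A4, chr1:153545757-153546056, minus strand: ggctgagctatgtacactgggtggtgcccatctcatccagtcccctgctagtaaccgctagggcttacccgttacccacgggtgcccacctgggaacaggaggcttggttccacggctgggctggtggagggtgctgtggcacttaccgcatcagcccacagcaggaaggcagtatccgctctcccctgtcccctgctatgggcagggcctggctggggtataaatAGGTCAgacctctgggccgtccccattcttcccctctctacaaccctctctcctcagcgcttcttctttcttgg
In these windows S100A9 held a GC box 131 bases before the start, and S100A6 held 3, at 90, 79 and 75 bases before it, the last pair overlapping. S100A4 held AGGTCA 24 bases before its start, and S100P held no match to any motif searched. A GC box was also in a window of S100A10, S100A11, S100A13 and S100A16, which are not shown. None of these was called lower in both line comparisons. Of 35116 RefSeq windows of the same length, 45.0% held a GC box and 13.8% held AGGTCA on either strand. The other motifs searched on both strands were AP-1 (TGANTCA, in 7.71% of windows), an E-box (CACGTG, 7.26%), the p53 decamer (6.63%) and the NF-kB motif (5.91%). An exact inverted repeat of AGGTCA and TGACCT set 1 base apart was in 0 of the 35116 windows, so it could not mark any member. All 10 members matched the RefSeq table, with 14 windows in all. A match is a run of letters and not a measured site.

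Libraries held 17.1 to 19.0 M counts. Levels are TMM-scaled CPM, counts per 1 M counts of a library. NR1H4 itself had 25.3, 23.3 and 22.3 CPM in sham shControl libraries and 5.08, 4.57 and 2.81 CPM in sham shFXR libraries, which did not overlap. The log2 fold change of shFXR against shControl was -2.51 ± 0.16 (SE) in sham and -3.05 ± 0.17 in irradiated cells (edgeR adjusted p = 2.78e-10 and 2.85e-11). The second sham shControl library stood apart from the other two of its group. It had a TMM factor of 0.917 against 1.01 and 1.02, 16.8% of its counts on the mitochondrial genome against 12.9% and 13.6%, and the highest sum over the 10 S100 genes of any library, 4677 CPM. The chi-square per degree of freedom across genes was 24.6 and 21.3 in its pairs with the others and 2.49 to 15.5 in every other pair of replicates. For the tested S100 members, calls that change without it are given both ways below, as are the values it moves most. Calls of other genes are given with it included only, and whether they hold without it was not tested. Of markers of A549 and lung epithelium, 7 of 9 were tested, and their summed level was 6397 to 10066 CPM in shControl and 4039 to 5040 CPM in shFXR libraries. Within the list, KRT8 and KRT18, whose genes overlap at their ends on opposite strands, were lower in shFXR cells, at log2 -1.09 and -1.04 in sham and -1.76 and -1.56 in irradiated cells. KRT7 went the other way, at 0.05 in sham (adjusted p = 0.67) and 0.28 in irradiated cells (adjusted p = 0.0125). Fibroblast markers summed to 27.4 to 35.7 CPM in shControl and 39.4 to 59.3 CPM in shFXR libraries. Squamous and basal markers summed to 23.7 to 29.6 and 29.7 to 34.2 CPM, so both sums were higher in the shFXR line. The part of these differences in the S100 values was not tested. SFTPC and NKX2-1, which define alveolar type II and lung epithelial cells, were too low to test.

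Divided by gene length, the S100 genes spanned more than 3 orders of magnitude. The mean over the 12 libraries was 1285 CPM per kb for S100A6, 969 for S100A4, 641 for S100A11, 340 for S100A10 and 113 for S100A16. It was 39.9 CPM per kb for S100A9, 17.0 for S100P, 16.5 for S100A13, 3.11 for S100A2 and 0.202 for S100A14. Each of the first 4 lay above the next in all 12 libraries, and S100A16 lay above S100A9 in 11 of 12. S100A9 lay above S100P in 6 libraries and S100P above S100A13 in 5, so these 3 had no fixed order. S100A13 lay above S100A2, and S100A2 above S100A14, in all 12. S100A9 ranked 6th in both shControl groups and 9th in both shFXR groups, while the first 5 ranks were the same in all 4 groups. S100A14 had at most 10 counts in a library and was the only member that did not pass the filter on low counts, so 9 of 10 members were tested among 16053 genes.

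**Figure D1:**
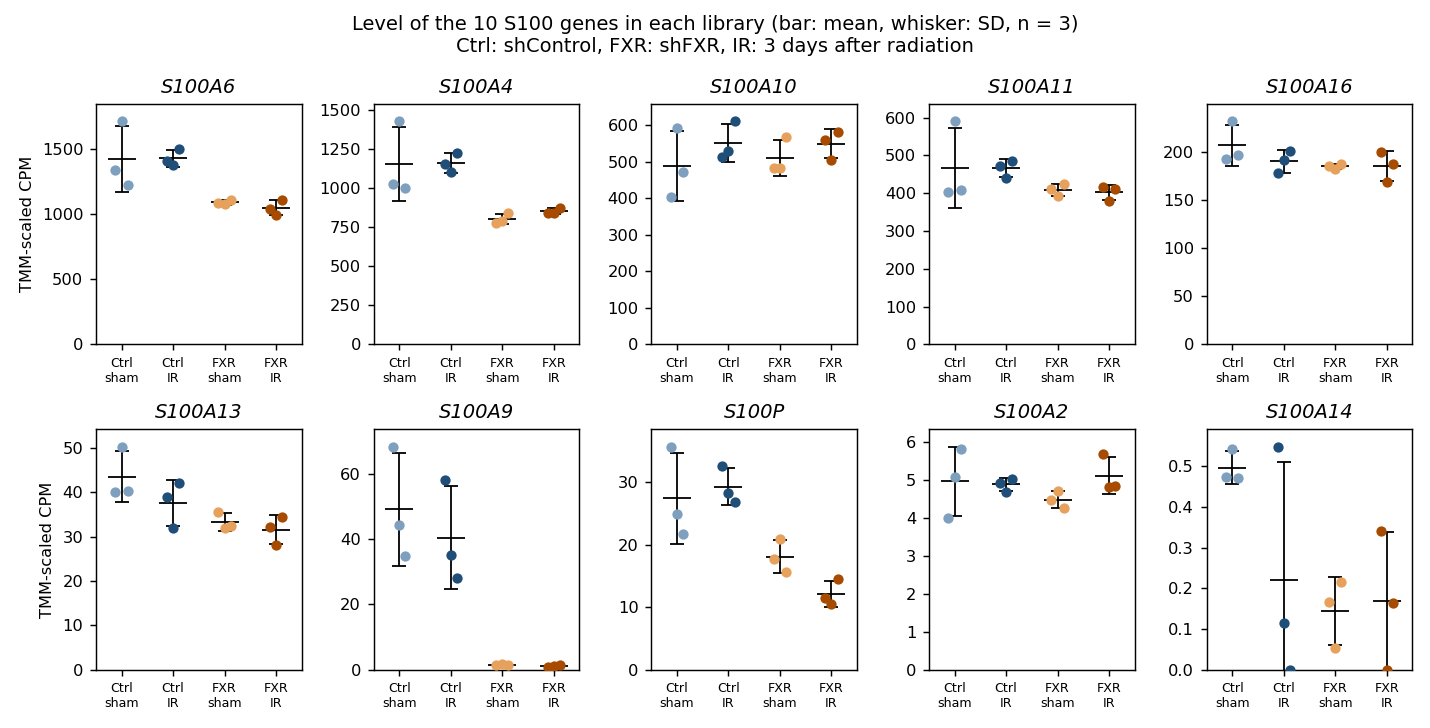
TMM-scaled CPM (linear axes from 0, a scale for each gene) of the 10 S100 genes in the 12 libraries, with the group mean (bar) and SD (whisker, n = 3). S100A9 is the gene whose shFXR libraries, at 0.739 to 1.65 CPM, lie near the base of a scale set by shControl libraries at 28.0 to 68.2 CPM.

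The lines were first compared in sham cells. Of the 9 tested members, 5 were lower in shFXR cells (S100A4, S100A6, S100A9, S100A13 and S100P) and 0 were higher, at an adjusted p under 0.05 in edgeR's quasi-likelihood test. Without the second sham shControl library 4 were lower, the call of S100A13 being lost, and 1 was higher, S100A10. The background is wide: 37.4% of all tested genes passed in this comparison, 18% higher and 19.4% lower. With library totals alone as the scaling, that split over all genes was 3820 higher and 2465 lower, against 2885 and 3118 with TMM scaling. The median log2 fold change of the 9 members was -0.39, against -0.01 over all tested genes. The sham groups did not overlap for 6 members, those 5 and S100A16, and for 46.9% of all genes. In bulk RNA, fewer cells that express a gene and less of its RNA per cell cannot be told apart.

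In irradiated cells, 4 of the 9 tested members were lower in the shFXR line (S100A4, S100A6, S100A9 and S100P) and 0 were higher. Without the second sham shControl library 6 were lower, S100A11 and S100A13 being added. That library is in neither group compared here, but the fit takes its spread from all libraries. Without it the log2 value of S100A11 was -0.209, against -0.212 with it. For S100A13 it was -0.250 ± 0.095 (SE), against -0.253 ± 0.111. Over all genes 40.8% passed, 19.5% higher and 21.3% lower. The members' median log2 fold change was -0.25, against -0.00 over all tested genes. The irradiated groups did not overlap for 5 members, S100A11 beside those 4, and for 52.9% of all genes. No member was higher in either line comparison at an unadjusted p under 0.05, and DESeq2 and limma voom with sample weights also called 0 higher.

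**Figure D2:**
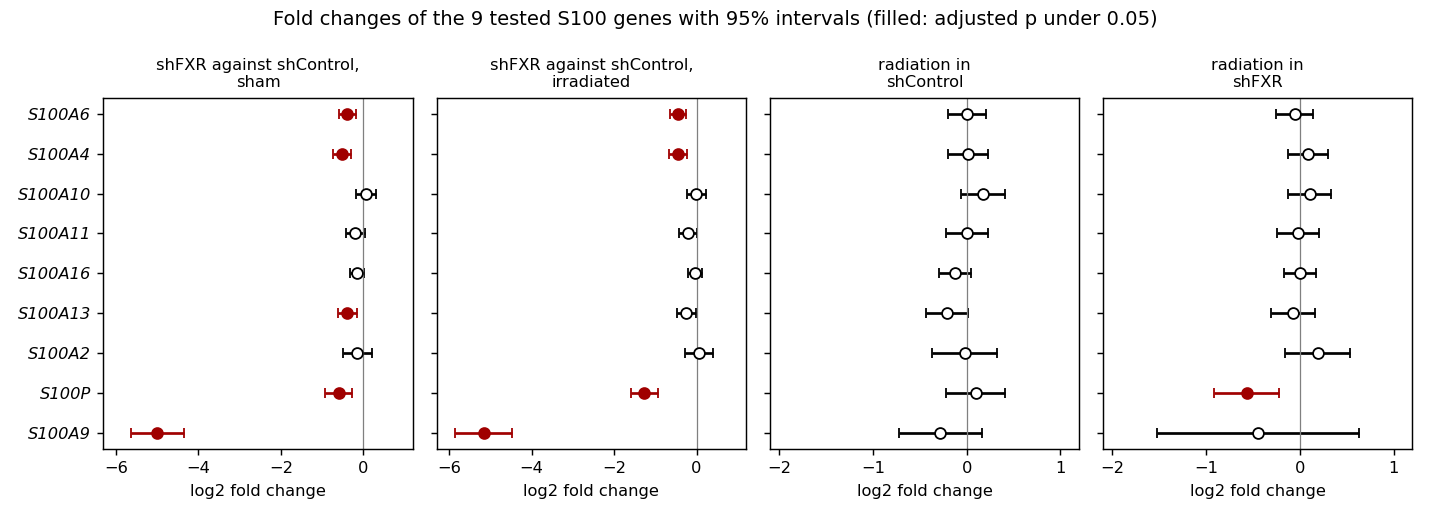
log2 fold change of the 9 tested S100 genes with its 95% interval in the line comparisons (wider axes) and the radiation comparisons, filled where the adjusted p was under 0.05. S100A9 stands at -5.00 and -5.16 between the lines, and S100P at -0.57 is the filled point for radiation, in shFXR cells.

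S100A9, a subunit of calprotectin, showed the widest gap of the 9 tested members. Its level was 68.2, 44.2 and 34.8 CPM in the sham shControl libraries and 58.2, 35.0 and 28.0 CPM in the irradiated ones. It was 1.49, 1.65 and 1.46 CPM in sham shFXR libraries and 0.739, 1.09 and 1.53 CPM in irradiated ones. Every shControl library was thus far above every shFXR library, and the first library was the highest of each shControl group. In raw reads this was 517 to 1292 counts in shControl and 13 to 31 counts in shFXR libraries. The log2 fold change between lines was -5.00 ± 0.31 in sham cells (adjusted p = 1.84e-10) and -5.16 ± 0.33 in irradiated cells (adjusted p = 2.55e-10), or 31.9-fold and 35.8-fold lower. By size of the fold change S100A9 ranked 5th of the 16053 tested genes in each comparison. Leaving out any single library kept the log2 value between -5.19 and -4.67 in sham and between -5.46 and -4.80 in irradiated cells.

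S100A8, the other calprotectin subunit, which was not among the 10, moved with it. It had 121, 86 and 80 raw counts in the sham shControl libraries and 128, 97 and 77 in the irradiated ones. It had 1, 2 and 0 counts in the sham shFXR libraries and 1, 5 and 1 in the irradiated ones. The groups were far apart, at 77 counts or more against 5 or fewer. The ratio of summed CPM was 97.2 (exact 95% interval 32.9 to 474, counting error only) in sham cells, where the shFXR sum was 3 counts. In irradiated cells it was 42.5 (20.4 to 107), with 7 counts in the shFXR sum. The fitted log2 fold changes of -6.43 and -5.34 (adjusted p = 3.17e-09 and 5.28e-09) depend on the prior count at such low levels and are no bound. S100A8 passed the filter on low counts through its shControl libraries only.

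**Figure D3:**
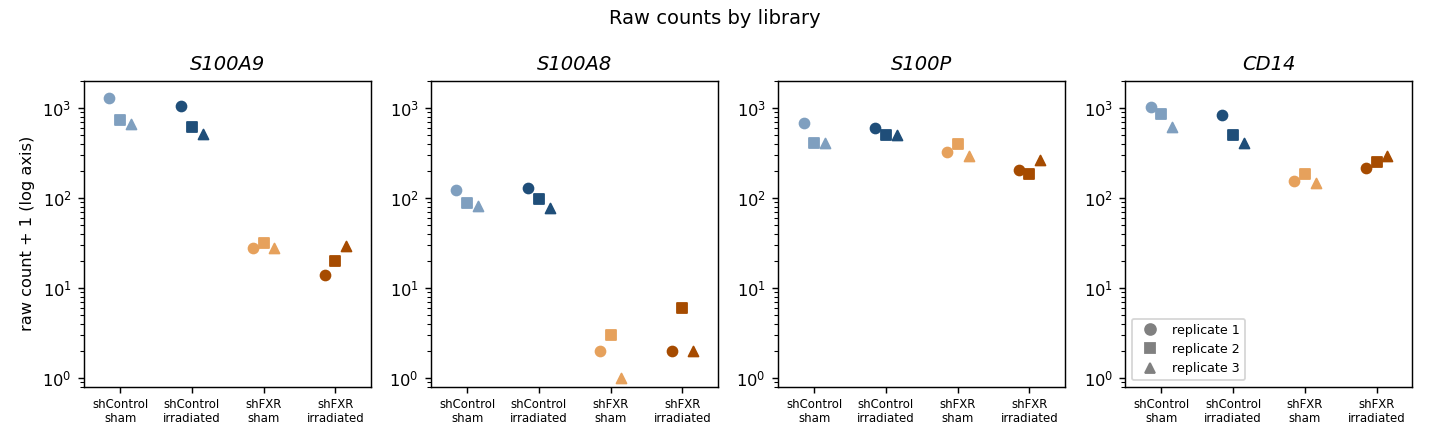
Raw counts plus 1 (log axis) of S100A9, S100A8, S100P and CD14 in the 12 libraries, by group, with a marker shape for each replicate number. S100A9 has 517 or more counts in shControl and 31 or fewer in shFXR libraries, and S100A8 has 77 or more and 5 or fewer.

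Because both calprotectin genes are leukocyte markers, a list of leukocyte genes was set beside them. CD3E, MS4A1 and FCGR3A had 0 counts in all 12 libraries, and PTPRC, LYZ and CD68, which define leukocytes and macrophages, had at most 3. Only CD14 and ITGAM of the 10 listed genes were tested. The summed level of the list was 35.0 to 57.6 CPM in sham and 23.8 to 49.8 CPM in irradiated shControl libraries, and 12.3 to 14.98 and 17.1 to 22.9 CPM in the shFXR libraries. Most of this was CD14, a coreceptor of TLR4, with 53.8, 51.3 and 32.4 CPM in sham shControl and 8.45, 9.72 and 7.82 CPM in sham shFXR libraries. In irradiated cells CD14 had 46.4, 28.6 and 21.9 CPM in shControl and 12.1, 14.3 and 15.8 CPM in shFXR libraries. CD14 was thus also lower in every shFXR library than in any shControl library. ITGAM, an integrin subunit of myeloid cells and the other tested gene of the list, was higher in shFXR cells, at log2 0.89 ± 0.28 in sham (adjusted p = 0.0154) and 1.27 ± 0.27 in irradiated cells (adjusted p = 0.000923). The part of other cell types in the calprotectin values was not tested.

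S100P, a member found in many carcinomas that binds ezrin and AGER, was also lower in the shFXR line. It had 35.7, 24.9 and 21.7 CPM in sham shControl libraries and 17.7, 20.9 and 15.6 CPM in sham shFXR libraries. After radiation it had 32.7, 28.3 and 26.9 CPM in shControl and 11.5, 10.6 and 14.5 CPM in shFXR libraries. The line groups did not overlap in either treatment, though the sham groups were separated by less than 1 CPM. The log2 fold change of shFXR against shControl was -0.60 ± 0.15 (adjusted p = 0.00448) in sham and -1.26 ± 0.16 (adjusted p = 3e-06) in irradiated cells. Without the first sham shControl library, the highest of its group, the sham value was -0.36 and its adjusted p 0.0537.

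S100A4, which binds the nonmuscle myosin heavy chain MYH9 and is known for cell motility, was lower in both comparisons of the lines. Its levels were 1029, 1429 and 1005 CPM in sham shControl and 780.2, 792 and 841 CPM in sham shFXR libraries. In irradiated cells they were 1157, 1103 and 1226 CPM in shControl and 841, 842 and 874 CPM in shFXR libraries. No shFXR library reached the lowest shControl library, and the second sham shControl library was far above the rest. The log2 fold change was -0.52 ± 0.10 in sham cells (adjusted p = 0.000495) and -0.45 ± 0.10 in irradiated cells (adjusted p = 0.00154). Without the second sham shControl library the sham value was -0.32 (adjusted p = 0.000816).

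S100A6 (calcyclin), which binds the calcyclin-binding protein CACYBP, was the most abundant member per length in every group. It had 1342, 1711 and 1223 CPM in sham shControl libraries against 1082, 1078 and 1109 CPM in sham shFXR libraries. After radiation it had 1409, 1376 and 1497 CPM in shControl and 1041, 994 and 1107 CPM in shFXR libraries. Again no library of the lines overlapped. The log2 fold change was -0.39 ± 0.10 in sham (adjusted p = 0.00354) and -0.45 ± 0.10 in irradiated cells (adjusted p = 0.00095). The sham value was -0.22 (adjusted p = 0.0197) without the second sham shControl library.

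S100A13, known for the release of FGF1 together with the synaptotagmin SYT1, was called in sham cells. Its levels were 40.0, 50.2 and 40.3 CPM in sham shControl and 35.6, 31.9 and 32.3 CPM in sham shFXR libraries. In irradiated cells they were 38.9, 31.9 and 42.0 CPM in shControl and 32.2, 28.0 and 34.4 CPM in shFXR libraries, so there the groups overlapped. The fold change on the log2 scale was -0.39 ± 0.11 in sham cells (adjusted p = 0.00908), and -0.25 (adjusted p = 0.0606) without the second sham shControl library. In irradiated cells it was -0.25 ± 0.11 (adjusted p = 0.0747), which missed the threshold. Its adjusted p there was 0.0376 without the second sham shControl library and 0.02 without the second irradiated shControl library, where the log2 value was -0.36. The gene shares 235 exon bases, 10.6% of its length, with S100A1 on the other strand, and 536, or 24.2%, with AL162258.1 on its own strand. The sources used here do not give the strand setting of the counting, so its reads cannot be told from theirs in these stretches.

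The annexin-binding members S100A10 and S100A11 gave no call between the lines. S100A10, which pairs with annexin A2 and does not itself bind calcium, had 402, 591 and 472 CPM in sham shControl and 481, 483 and 567 CPM in sham shFXR libraries. In irradiated cells it had 512, 529 and 609.7 CPM in shControl and 560.3, 504 and 581 CPM in shFXR libraries. The groups overlapped in both treatments. Expressed as log2, the change was 0.06 (95% interval -0.17 to 0.30) in sham and -0.00 (-0.24 to 0.23) in irradiated cells, with adjusted p = 0.679 and 0.978. The sham value became 0.24 (adjusted p = 0.0464) without the second sham shControl library.

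S100A11, a partner of annexin A1, had 404, 589.8 and 408 CPM in sham shControl and 412, 392 and 424 CPM in sham shFXR libraries. In irradiated cells it had 472, 440.1 and 486 CPM in shControl and 416, 380.3 and 411 CPM in shFXR libraries. The sham groups overlapped, while the irradiated groups did not. In log2 terms the line difference was -0.19 (95% interval -0.41 to 0.03, adjusted p = 0.174) in sham cells and -0.21 (-0.44 to 0.01, adjusted p = 0.123) in irradiated cells. The sham value was 0.03 (adjusted p = 0.762) without the second sham shControl library. The irradiated value passed in several alternative fits, with an adjusted p of 0.0082 without the second sham shControl library, 0.0178 with only the groups compared, 0.0454 with voom weights and 0.0462 with no filter.

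S100A16, a widely expressed member, had 192, 231 and 197 CPM in sham shControl and 185, 182 and 187 CPM in sham shFXR libraries, which did not overlap. In irradiated cells it had 178, 191 and 201 CPM in shControl and 199.6, 169 and 187 CPM in shFXR libraries, which did. The fold change on the log2 scale was -0.16 (95% interval -0.33 to 0.01, adjusted p = 0.129) in sham and -0.04 (-0.21 to 0.13, adjusted p = 0.751) in irradiated cells. Without the second sham shControl library the sham value was -0.06 (adjusted p = 0.587). S100A2, a p53-binding member of squamous and basal epithelium, was low in all groups, at 4.01 to 5.82 CPM over the 12 libraries. Its log2 fold change was -0.15 (-0.49 to 0.20, adjusted p = 0.519) in sham and 0.07 (-0.28 to 0.41, adjusted p = 0.784) in irradiated cells.

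S100A14, an epithelial member, was counted in the sham shControl libraries with 9, 9 and 9 reads and in the irradiated ones with 10, 2 and 0. It had 3, 1 and 4 reads in sham and 6, 0 and 3 in irradiated shFXR libraries. The ratio of summed CPM, shControl over shFXR, was 3.43 (exact 95% interval 1.52 to 8.74, counting error only) in sham and 1.31 (0.508 to 3.53) in irradiated cells. Whether these reads differ beyond the spread between cultures was not tested.

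The radiation comparison in shControl cells called no S100 gene. There 0 of 9 tested members passed, where 10% of all genes did (5.07% higher, 4.96% lower), and 0 members had an unadjusted p under 0.05. DESeq2 also called 0 members, and limma voom with sample weights called 1, S100A10, at 0.26 on the log2 scale. The median log2 fold change of the members was -0.00, the same as over all tested genes to 2 decimals. The groups overlapped for all 9 members and did not overlap for 24.7% of all genes. The log2 fold changes ran from -0.28 for S100A9 (95% interval -0.72 to 0.16, adjusted p = 0.43) to 0.17 for S100A10 (-0.06 to 0.40, adjusted p = 0.345).

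Both ends of that range moved with single libraries. For S100A9 the value was -0.64 (adjusted p = 0.0331) without the first irradiated shControl library and 0.03 (adjusted p = 0.937) without the first sham shControl library. For S100A10 it was 0.33 (adjusted p = 0.032) without the second sham shControl library. The intervals of the abundant members were narrow: -0.20 to 0.22 for S100A4, -0.20 to 0.20 for S100A6 and -0.23 to 0.22 for S100A11. Without the second sham shControl library these 3 genes had 0.19, 0.15 and 0.20, with adjusted p = 0.0845, 0.196 and 0.075.

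In shFXR cells, 1 of the 9 tested members changed with radiation, and it fell: S100P. Over all genes 21% passed, 10.9% higher and 10.2% lower. No member was higher, also at an unadjusted p under 0.05. S100P went from 17.7, 20.9 and 15.6 CPM in sham to 11.5, 10.6 and 14.5 CPM in irradiated shFXR libraries, without overlap. Expressed as log2, the change was -0.57 ± 0.16 (adjusted p = 0.0185). It missed the threshold without the second sham shFXR library (-0.45, adjusted p = 0.096), without the first irradiated one (-0.53, adjusted p = 0.0704) and without the second irradiated one (-0.48, adjusted p = 0.087). The groups also did not overlap for S100A2 and S100A4, at log2 fold changes of 0.19 (adjusted p = 0.453) and 0.08 (adjusted p = 0.608), where 43.7% of all genes did not overlap. The other 6 members lay between -0.45 for S100A9 (95% interval -1.52 to 0.63) and 0.10 for S100A10 (-0.13 to 0.33). The median of the 9 was -0.02, against 0.02 over all tested genes.

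The difference between the radiation responses, shFXR minus shControl, passed for 0 of 9 tested members, where 15% of all genes passed (7.31% higher, 7.67% lower). At an unadjusted p under 0.05 there was 1, S100P, and DESeq2 and limma voom with sample weights each called that gene. Its radiation response was 0.09 (95% interval -0.22 to 0.41) in shControl and -0.57 (-0.91 to -0.23) in shFXR cells on the log2 scale. The difference was -0.66 ± 0.22 with an adjusted p of 0.0502, just over the threshold. Over 21 alternatives that adjusted p ran from 0.00062 to 0.132, and it was under 0.05 in 10 of them. The other 8 members had differences between -0.16 for S100A9 and 0.21 for S100A2, with adjusted p of 0.498 or more. Without the second sham shControl library S100A10 had -0.24 (adjusted p = 0.185), S100A11 -0.24 (adjusted p = 0.0747) and S100A6 -0.23 (adjusted p = 0.107). These responses and the line comparisons use the same 12 libraries, so they are not independent of each other.

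Together the 10 genes took 0.376% ± 0.0456 of all counts in sham shControl, 0.380% ± 0.0168 in irradiated shControl, 0.316% ± 0.00756 in sham shFXR and 0.312% ± 0.0125 in irradiated shFXR cells (SD, n = 3). The sham shControl share was 0.350% without its second library. S100A4 and S100A6 made up 66.6%, 66.3%, 62.0% and 61.6% of that sum in the same order. S100A10 made up 12.6%, 14.1%, 16.7% and 17.8%. S100A9 made up 1.30% and 1.04% in the shControl groups and 0.0502% and 0.0361% in the shFXR groups. The mitochondrial share of a library differed too, at 14.4% and 14.8% in shControl and 10.5% and 12.6% in shFXR cells. With mitochondrial genes left out of the total, the S100 share was 0.440%, 0.447%, 0.353% and 0.357%.

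Among 11 further genes of the family, 4 were tested. In sham cells 2 of them were lower in shFXR cells, S100A8 and S100A3, and in irradiated cells 3 were, with S100A1. Over all genes 37.4% passed in sham cells (19.4% lower) and 40.8% in irradiated cells (21.3% lower). S100A3, a cysteine-rich member that lies within the span of S100A4 without sharing exon bases, had 47.0, 71.3 and 52.8 CPM in sham shControl and 30.2, 32.9 and 31.1 CPM in sham shFXR libraries. Its log2 fold change was -0.86 ± 0.12 in sham (adjusted p = 1.68e-05) and -0.86 ± 0.12 in irradiated cells (adjusted p = 1.08e-05). S100A1, best known from heart muscle and overlapping S100A13, was below 1 CPM throughout and had -1.40 ± 0.48 in irradiated cells (adjusted p = 0.0247). Like S100A8, it passed the filter on low counts through its shControl libraries only. It had 3 to 6 counts in each shFXR library, so its call is not separate from its passing the filter. S100A5 was tested and not called. Of the 7 untested genes, S100A7A, S100A7L2, S100B and S100G had 0 counts in all 12 libraries, and S100A7, S100A12 and S100Z had at most 3.

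The receptors of extracellular S100 proteins were all tested. TLR4, a receptor of calprotectin, rose with radiation in shControl cells from 25.5, 22.7 and 24.8 to 29.5, 36.0 and 41.8 CPM (log2 0.56 ± 0.11, adjusted p = 0.00298). In shFXR cells it had 21.0, 20.4 and 17.5 CPM in sham and 19.9, 21.0 and 20.8 CPM in irradiated libraries. The groups overlapped in shFXR cells and not in shControl cells. The difference between the responses was -0.49 ± 0.16 (adjusted p = 0.0396). BSG, a receptor of S100A9, was lower in sham shFXR cells (-0.60 ± 0.10, adjusted p = 6.59e-05) and had -0.24 in irradiated cells (adjusted p = 0.0514). ALCAM, another proposed receptor of S100 proteins, was higher in the shFXR line at 0.58 and 0.60. CD36, which binds the calprotectin and fatty acid complex, rose with radiation in shFXR cells at 0.72 ± 0.18 (adjusted p = 0.00695). AGER was at 0.939 to 2.45 CPM and was called in no comparison.

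Of 17 intracellular partners of S100 proteins, 16 were tested. In the shFXR line 4 were higher and 3 lower in sham cells, and 4 higher and 5 lower in irradiated cells, where 37.4% and 40.8% of all genes passed. AHNAK, the giant scaffold that the S100A10 and annexin A2 complex binds, was higher at 0.66 ± 0.10 in sham and 0.47 ± 0.10 in irradiated cells. EZR (ezrin), the S100P target that links membrane to actin, was lower at -0.34 and -0.68, and fell by 0.28 with radiation in shFXR cells. CACYBP, the S100A6 partner, had no call between sham lines (0.14, adjusted p = 0.248), fell with radiation in shFXR cells (-0.50, adjusted p = 0.000783) and was lower in irradiated shFXR cells (-0.25, adjusted p = 0.0426). MYH9, the S100A4 target, was higher in irradiated shFXR cells (0.44 ± 0.08), and S100PBP, which binds S100P, was higher in sham shFXR cells (0.25, adjusted p = 0.0444). STUB1, a ubiquitin ligase bound by S100 proteins, was lower at -0.80 and -0.72. With radiation 1 partner rose in shControl cells, MDM2, at 1.14, where 10% of all genes passed. In shFXR cells 3 rose, MDM2 at 0.88 among them, and 5 fell, where 21% of all genes passed. None passed for the difference of responses, where 15% of all genes did.

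All 13 annexins listed were tested, and the line comparisons called 3 higher and 4 lower in sham and 2 higher and 4 lower in irradiated cells, beside 37.4% and 40.8% of all genes. ANXA2, the partner of S100A10, was higher in sham shFXR cells (0.29 ± 0.09, adjusted p = 0.0192) and had 0.04 in irradiated cells (adjusted p = 0.793). ANXA1, the partner of S100A11, had -0.08 in sham cells (adjusted p = 0.42). It fell with radiation in shFXR cells by 0.34 and was lower there than in irradiated shControl cells (-0.43 ± 0.07), with a difference of responses of -0.35 ± 0.10 (adjusted p = 0.0309). ANXA4 was lower at -0.98 and -1.34, and ANXA13, known from intestinal and kidney epithelium, at -3.23 and -3.57. Of the other EF-hand genes listed, 27 of 31 were tested, with 4 higher and 11 lower in sham and 9 higher and 13 lower in irradiated shFXR cells, read against the same shares of all genes. The S100 fused-type genes, which join an S100 domain to long repeats in skin, were low, with 2 of 7 tested. FLG among them rose with radiation in shControl cells at 0.88 ± 0.24 (adjusted p = 0.027).

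Tested genes around the chromosome 1 cluster differed between the lines in both directions. In the stretch from 200 kb before S100A9 to 200 kb after S100A13 (chr1:153157854-153831360, hg38), 46 genes were listed and 19 tested, 10 of them S100 genes. Of the other 9, 3 were higher and 2 lower in sham shFXR cells, and 3 were higher and 0 lower in irradiated shFXR cells, with medians of 0.05 and 0.13. Over all genes 37.4% and 40.8% passed in these comparisons. NPR1, the natriuretic peptide receptor, was higher at 0.95 ± 0.17 and 1.14 ± 0.16, and GATAD2B at 0.27 and 0.39. ILF2 was higher at 0.22 (adjusted p = 0.0253) in sham cells, where SLC27A3 was lower at -0.85 (adjusted p = 0.0177). CHTOP was called for radiation, at -0.30 in shControl and -0.22 in shFXR cells. The part of the place on the chromosome in the S100A9 and S100A8 values was not tested.

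**Figure D4:**
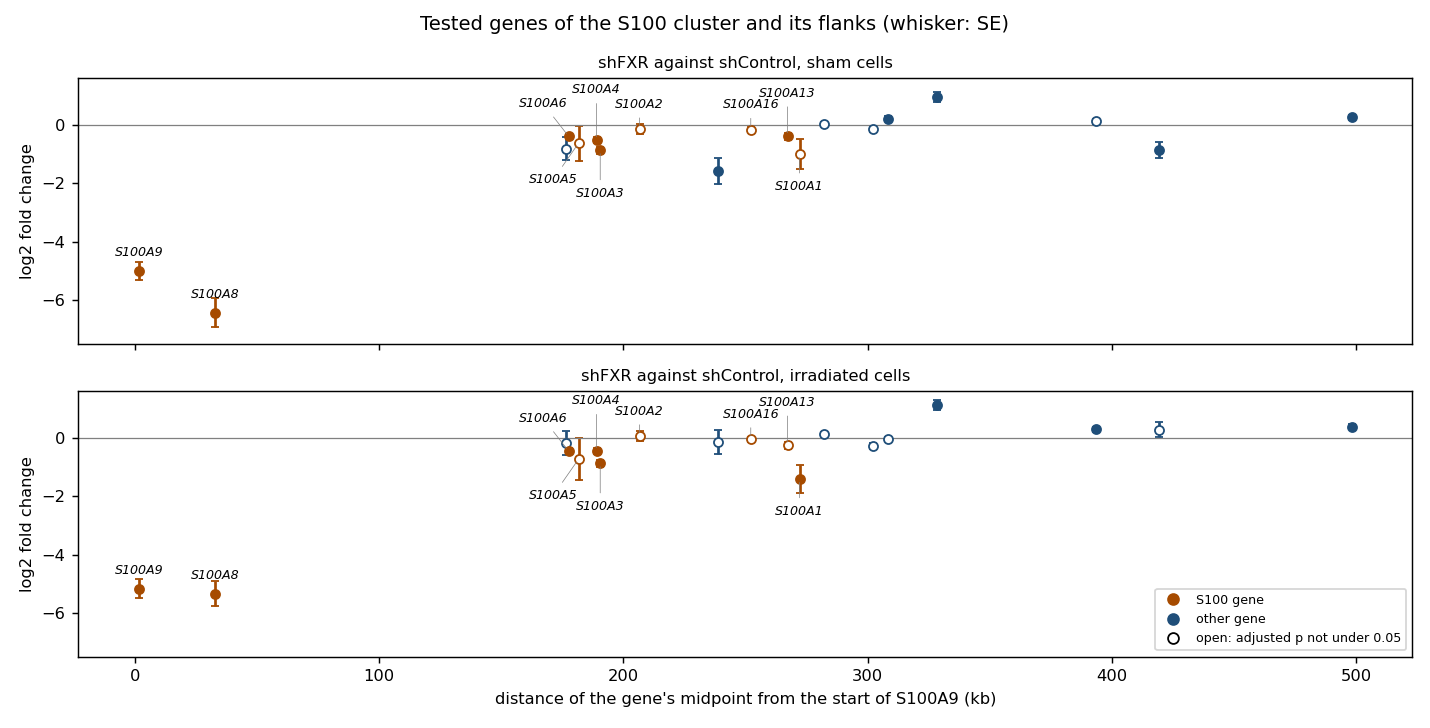
log2 fold change of shFXR against shControl with its SE for the tested genes of the chromosome 1 cluster, by distance of the gene's midpoint from the start of S100A9 in kb, for sham (top) and irradiated (bottom) cells. The calprotectin genes lie at -5.00 or lower, while genes of other families, such as NPR1 at 0.95 and 1.14, lie on both sides of 0.

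S100 genes are short, and short genes as a class were lower in the shFXR libraries. Member lengths ran from 577 bases for S100A9 to 2216 for S100A13. The 471 tested protein-coding genes of 500 to 1500 bases had a median log2 fold change of -0.15 (quartiles -0.51 and 0.09) in sham cells, where 27.4% were lower and 5.52% higher. In irradiated cells it was -0.12 (-0.45 and 0.22). S100A2, S100A10, S100A13 and S100A16 are longer and fall among the 2284 genes of 1500 to 3000 bases. That class had medians of -0.05 (quartiles -0.36 and 0.20) in sham and -0.03 (-0.35 and 0.30) in irradiated cells. The 2912 genes of 8000 bases or more had medians of 0.07 and 0.01. With a trend on gene length taken out of each library, a fit chosen after seeing these values, S100A4 had -0.41 (adjusted p = 0.000523), S100A6 -0.27 (adjusted p = 0.00676), S100A13 -0.29 (adjusted p = 0.0184) and S100P -0.50 (adjusted p = 0.011) in sham cells. Under the main settings the values of these 4 genes were -0.52, -0.39, -0.39 and -0.60, each larger in size. With the trend taken out they were still called in sham cells. S100A11 and S100A13 gained a call in irradiated cells, at adjusted p = 0.0293 and 0.0437. The part of gene length in the S100 values was not tested.

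**Figure D5:**
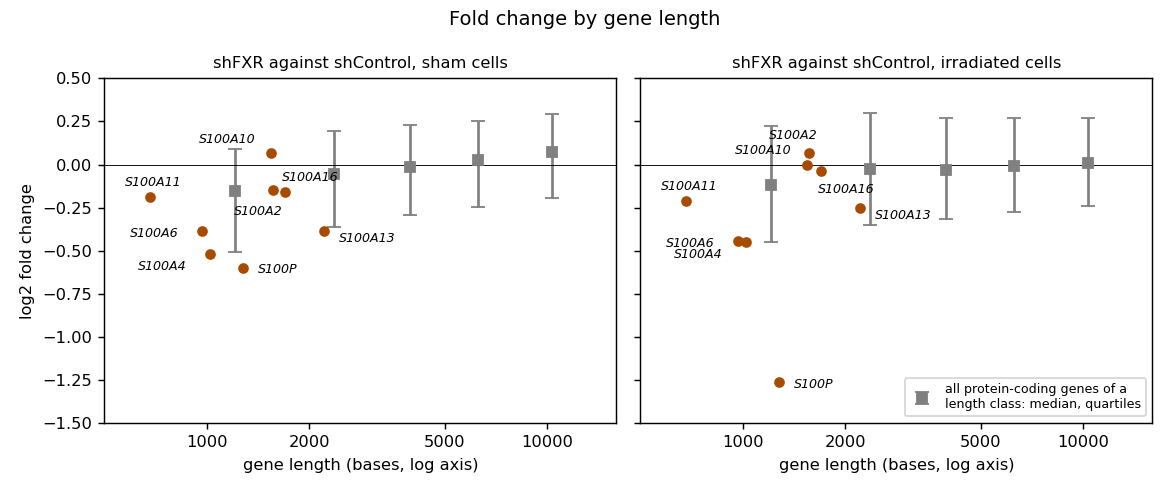
log2 fold change of shFXR against shControl by gene length (log axis) in sham and irradiated cells: squares and whiskers are medians and quartiles of all tested protein-coding genes in 5 length classes, points are the 8 tested S100 genes other than S100A9, which lies below the axis. S100A4 at -0.52 and S100P at -0.60 in sham cells lie beyond the lower quartile of -0.51 for genes of 500 to 1500 bases, and S100A6 at -0.39 lies inside it. S100A13, also at -0.39 in sham cells, lies beyond the lower quartile of -0.36 for genes of 1500 to 3000 bases.

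For each tested member the genes closest in pattern were sought by the root-mean-square difference of mean-centred log2 CPM over the 12 libraries, among 10488 protein-coding genes of at least 5 CPM. For S100A9 these were CLDN2 (0.434) and MUC5B (0.455), set against its own spread of 2.50. For S100P they were RNF138 (0.195) and FAM107B (0.201), against 0.545. S100A4 was closest to NMRAL1 (0.0616) and to S100A6 (0.0710). S100A6 was closest to COX6B1 (0.0402) and COX5B (0.0427), subunits of cytochrome c oxidase, S100A10 to SDHAF2 and EIF6, and S100A11 to PPME1 and OTUB1. S100A13 was closest to H2AFJ and C12orf57, S100A16 to SELENOH and TPM2, and S100A2 to TMEM117 and TBRG1. These distances are a description over libraries that share the line difference.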

How the data were processed

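RNA sequencing was done on 12 libraries of A549 cells, 3 in each of 4 groups taken from the sample titles. Per the labels' protocols, poly-T beads captured mRNA, which random hexamers primed for cDNA. The authors deposited a table of raw counts per gene and library. Per the submitters' processing notes the build was hg38 and DESeq2 1.20.0 was used. The sources used here do not name the aligner, the counting tool or the strand setting. All 58735 gene identifiers and coordinates equalled those of GENCODE 29. Libraries held 17.1 to 19.0 M counts, which limits the precision of low genes, and intervals on summed counts cover counting error only.

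Counts were filtered with filterByExpr (minimum count 10, minimum total 15), which kept 16053 genes. After TMM scaling, the quasi-likelihood fit of edgeR 4.0.16 (R 4.3.3) used all 12 libraries, each group having its own mean. Benjamini-Hochberg adjusted p under 0.05 over all tested genes was called. An SE was obtained from the log2 value and its F statistic, as the ratio of the former to the root of the latter. The design text calls the samples biological replicates. Alternatives were RLE scaling, library totals only, no filter, a mean of at least 5 CPM, only the groups compared, DESeq2 1.42.0, limma 3.58.1 voom with sample weights, a replicate block, leaving out mitochondrial genes and leaving out each library. A trend on gene length was added after seeing the data.

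The 10 S100 genes and the lists of partners, annexins, other EF-hand genes and cell type markers were chosen with earlier results of these data known. All 10 members are given. Of each list, the 2 genes with the smallest adjusted p each way, and a fixed set of partners, could be named. Of the neighbours, those called in most comparisons are named. For each tested member, the 2 genes closest in pattern are given. Protein sequences were not used here.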

Additional observations from a re-analysis of the deposited data

How the results depend on the processing

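S100A4, S100A6 and S100A9 were called lower in shFXR cells in 22 of 22 alternatives in both line comparisons, S100P in 22 of 22 in irradiated and 21 of 22 in sham cells, and S100A13 in 21 of 22 in sham cells. These alternatives reuse the same libraries and lines, and some leave out a library of a group not compared, so they are not independent checks. Whether the sample numbers pair the libraries could not be settled from the correlation of same-numbered deviations, with 3 libraries a group. It was 0.459, -0.00927 and 0.0919 for radiation in shControl cells and -0.0231, -0.129 and -0.0686 for radiation in shFXR cells. For the sham lines it was 0.200, -0.195 and 0.0337, and for the irradiated lines -0.147, 0.0210 and -0.130. With the replicate block the members called stayed at 0, 1, 5 and 4 in the first 4 comparisons and became 1 for the difference of responses, with S100P at -0.67 (adjusted p = 0.0373). That count was also 1 with RLE scaling, no filter, DESeq2, voom weights, without mitochondrial genes and with the length trend, and 0 to 1 over single libraries left out. The count for radiation was 1 with voom weights and 0 to 1 over left-out libraries in shControl cells, and 0 to 1 in shFXR cells. Genes called over the whole table for radiation in shControl cells were 551 with only the groups compared, 2659 with voom weights and 562 to 1932 over left-out libraries, against 1611. In shFXR cells they were 6298 with voom weights and 2106 to 4254, against 3379, and for the difference of responses 4300 and 1162 to 3254, against 2405. The cause of these shifts was not tested. The summed S100 share was 0.440%, 0.447%, 0.353% and 0.357% without mitochondrial genes, whose removal shrinks the total.

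The values that changed sign, all log2 fold changes without a call under the main settings, were these. S100A10 between irradiated lines was 0.0494 with library totals, 0.0241 with a mean of 5 CPM, 0.000506 with only the groups compared, 0.0433 with voom weights, 0.000248 with the replicate block and 0.00559 with the length trend. S100A16 there was 0.0167 with library totals and 0.00452 with voom weights. S100A11 for radiation in shControl cells was 0.00179 with RLE scaling, 0.000693 with library totals, 0.00165 with DESeq2, 0.0885 with voom weights, 0.00362 with the replicate block and 0.0954 with the length trend. For radiation in shFXR cells it was 0.0115 with a mean of 5 CPM and 0.000113 with voom weights, and for the difference 0.0200 with a mean of 5 CPM. S100A16 for radiation in shFXR cells was -0.00281 with RLE scaling, -0.0306 with library totals, -0.0214 with no filter, -0.00622 with only the groups compared, -0.0028 with DESeq2 and -0.0186 with the length trend. S100A2 for radiation in shControl cells was 0.012 with voom weights and 0.0449 with the length trend. S100A6 there was -0.00479 with a mean of 5 CPM and -8.76e-05 with only the groups compared, and S100A4 for the difference was -0.0454 with the length trend.

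Over left-out libraries, radiation in shControl cells ran from -0.16 to 0.11 for S100A2, -0.0802 to 0.19 for S100A4, -0.0969 to 0.15 for S100A6, -0.64 to 0.0344 for S100A9, -0.0985 to 0.20 for S100A11 and -0.0522 to 0.33 for S100P. Radiation in shFXR cells ran from -0.0568 to 0.0134 for S100A11 and -0.0551 to 0.0637 for S100A16. The sham line difference ran from -0.0495 to 0.24 for S100A10 and -0.28 to 0.0302 for S100A11. The irradiated line difference ran from -0.0494 to 0.0755 for S100A10, -0.0935 to 0.0252 for S100A16 and -0.0159 to 0.11 for S100A2. The difference of responses ran from -0.12 to 0.16 for S100A4, -0.23 to 0.0375 for S100A6, -0.48 to 0.18 for S100A9, -0.24 to 0.0508 for S100A10 and -0.24 to 0.0703 for S100A11. Depth limits S100A14, S100A8 in shFXR cells and S100A1, which had 10 or fewer counts in some libraries.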
